A study of Sus scrofa with 24 samples.

Results

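SB203580 plus flagellin was compared with flagellin alone after 2 h in cultures of pig bronchial epithelium, the lining of the large airways. The members are 8 of the 24 libraries of the study: the 4 that the labels give as SB203580 with flagellin for 2 h, and the 4 given as DMSO with flagellin for 2 h, matched by replicate number. Both groups were epithelial cells from the bronchi of pigs aged 1 month, cultured with their upper surface in air. SB203580 plus flagellin cultures were held for 1 h with 20 µM SB203580 and then received 100 ng/ml flagellin for 2 h. Flagellin cultures were held for 1 h with DMSO, the solvent, and then received the same flagellin for 2 h. PBS cultures, 4 further libraries that give the level without flagellin, were held for 1 h with DMSO and then received PBS for 2 h. The same groups at 24 h give 4 libraries each. The main test was fitted on all 24 libraries, so the PBS and 24 h libraries also entered its estimate of spread. A culture with SB203580 and no flagellin was not analysed here, so an effect of the compound that does not need flagellin cannot be told apart from an effect on the response to it. The labels do not say whether replicates are separate animals or cultures, so p-values describe how these libraries vary, and some of that variation may be technical.

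Flagellin is the protein of the bacterial flagellum and is bound at the cell surface by TLR5, which signals through MYD88 to the NF-kB factors and to the MAP kinases, p38 among them. SB203580 is a pyridinyl imidazole that occupies the ATP site of p38α and p38β and is also known to bind some other kinases. In human and mouse cells, p38 activates the kinase MK2 (MAPKAPK2), which phosphorylates tristetraprolin (ZFP36), a protein that binds AU-rich elements in cytokine and immediate early mRNAs and brings them to the deadenylation machinery. p38 also activates MSK kinases and MEF2 factors, which act on transcription of early response genes.

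Libraries of this comparison held 31887970 to 36267289 counts in pig genes, and 14172 genes passed the filter on low counts. Levels are CPM (counts scaled to a common library size with TMM factors), and 3 counts, the limit that a count of 0 allows, corresponded to 0.0827 to 0.0941 CPM in these libraries. The epithelial genes CDH1 (1510 to 2083 CPM with SB203580 plus flagellin, 1535 to 2186 with flagellin) and TP63, a basal cell factor (64.9 to 87.98 CPM with SB203580 plus flagellin, 70.4 to 108.2 with flagellin), were high. The leukocyte genes PTPRC and CD3E had 0 counts in all 8 libraries. Other markers were detected in all 8. The lowest levels with SB203580 plus flagellin and with flagellin were 16.63 and 17.98 CPM for CD14 and 6.152 and 5.404 CPM for CD68, both myeloid markers. They were 0.7896 and 0.8918 CPM for COL1A1, a fibroblast marker, and 2.145 and 2.03 CPM for PECAM1, an endothelial marker. These genes therefore do not show whether cells other than epithelium were absent. Libraries of replicates 1 and 2 stood apart from those of replicates 3 and 4 along a principal component that held 69.8% of the variance. SB203580 plus flagellin replicate 1 also stood apart from replicate 2 of its own group. Its chi-square per gene against that replicate was 103, while the other 3 pairs within a set of replicates had 15.6 to 36.05. The count of called genes and several list medians are therefore also given without that library.

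SB203580 lowered 21 and raised 4 genes under flagellin, with the largest changes in RND1, ZFP36, IL1A and OTUD1 (lower) and CBX8 and TFAP4 (higher). These 25 genes are 0.176% of the genes tested (0.148% lower and 0.0282% higher), by edgeR's quasi-likelihood F test with a block for the replicate number at each time, at a Benjamini-Hochberg adjusted p under 0.05. The lowered genes had log2 fold changes of -1.24 to -0.36 with a median of -0.66, and 4 of them fell by at least a factor of 2. The raised genes had log2 fold changes of 0.65 to 1.45, and 2 of them rose by at least a factor of 2. All 25 genes moved the same way in 4 of 4 replicate pairs, where 9.20% of all genes were lower and 9.24% higher in 4 of 4. For 18 of the 25 genes no library of one group overlapped the other group, where 1.35% of all genes had every SB203580 plus flagellin library below every flagellin library and 1.22% above. The 25 genes were chosen by a fit to these same pairs, so both counts are largely fixed by that choice and are no further support. At an unadjusted p under 0.05 there were 993 genes (7.01%), with 3.66% lower and 3.35% higher, and the median log2 fold change of all genes was 0.0082. Without the replicate block edgeR called 1 gene (CBX8, 0.00706%), and when the block was the set of replicates (1 and 2, or 3 and 4) rather than the number it called 53 (0.374%), of which 23 were among the 25. DESeq2 with the replicate block called 138 genes (0.708%), the 25 among them. Without SB203580 plus flagellin replicate 1, 18 genes were called, 11 of them among the 25, and without replicate 3 of either group only 2. The count was 9 without SB203580 plus flagellin replicate 4, 8 without flagellin replicate 4, 12 without flagellin replicate 1 and 1 without the pair numbered 1. Among the 8 fits that left out 1 library, CBX8 was called in 8, TLNRD1 in 7, and IL1A, TNFAIP3, PLAUR and OTUD1 in 6. ZFP36 was called in 2 of these 8 fits, and RND1, ITPKC and TGIF2 in 1. The lowered genes CLCF1, TNFSF9, TOB1 and CSRNP2 and the raised genes TFAP4, TMEM186 and MIDEAS were called in 0 of the 8.

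**Figure D1:**
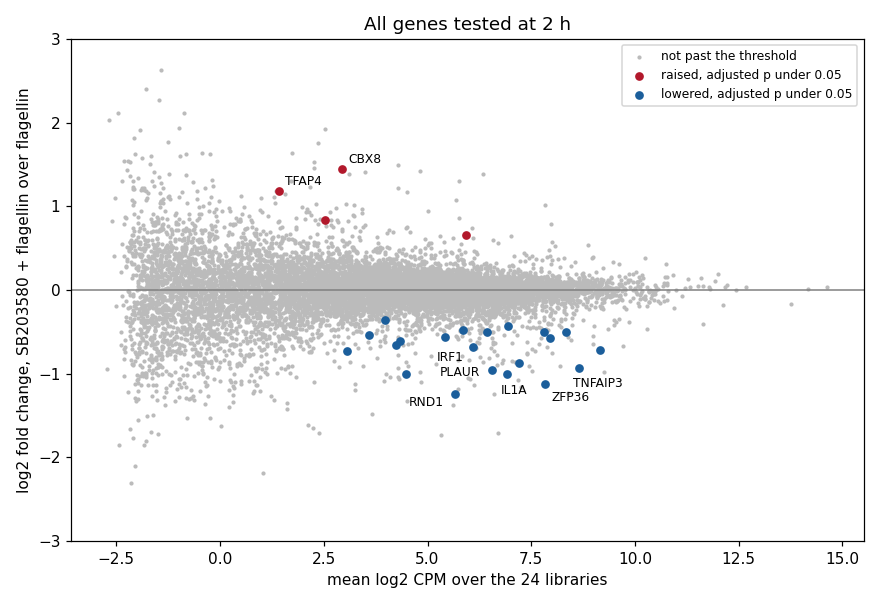
All 14172 genes tested, by mean log2 CPM over the 24 libraries (x axis) and log2 fold change of SB203580 plus flagellin over flagellin at 2 h (y axis). Red points are the 4 genes that rose and blue points the 21 that fell at an adjusted p under 0.05; grey points are the other genes, some of which lie farther from 0 at low levels.

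IL1A, an interleukin released by injured epithelium that acts through the IL-1 receptor, lies on chromosome 3 in the deposited coordinates. It had 149, 152, 173 and 164 CPM in SB203580 plus flagellin libraries of replicates 1 to 4, against 321, 299, 353 and 310.0 CPM in flagellin libraries and 45.6, 47.7, 98.1 and 61.6 CPM in PBS libraries. Every SB203580 plus flagellin library lay below every flagellin library and above every PBS library. The log2 fold change was -1.01 (SE 0.147, edgeR adjusted p = 0.01), and the SB203580 plus flagellin mean was 49.8% of the flagellin mean. The 4 pairs gave -1.11, -0.98, -1.03 and -0.92, the narrowest spread among the genes that fell by at least a factor of 2. In bulk RNA, fewer cells with a transcript and less of it per cell cannot be told apart.

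ZFP36 encodes tristetraprolin, the AU-rich element binding protein named above. It had 362, 224, 121 and 112 CPM with SB203580 plus flagellin, 484, 602, 364 and 229.7 CPM with flagellin and 302, 254, 148 and 155 CPM in PBS. The groups overlapped, since replicate 1 of SB203580 plus flagellin lay above replicate 4 of flagellin, but each SB203580 plus flagellin library was below the flagellin library of its number. ZFP36 fell by 1.12 on the log2 scale (SE 0.195, edgeR adjusted p = 0.0324). TOB1, an antiproliferative protein that links mRNAs to the CCR4-NOT deadenylase, had 189, 163, 179 and 181 CPM with SB203580 plus flagellin, 243, 261, 254 and 255 CPM with flagellin and 232, 281, 247 and 268 CPM in PBS. TOB1 thus lay below both other groups in every library, and fell by 0.51 (SE 0.0974, edgeR adjusted p = 0.0497, just inside the threshold). Among 20 tested genes of the mRNA decay list, these 2 fell, 13 had a log2 fold change below 0 and the median was -0.07, while 47.5% of all genes were below 0. With RLE factors, and without SB203580 plus flagellin replicate 1, 1 gene of this list was called, and without the replicate block 0 were. Short of the adjusted threshold were ZFP36L1, a paralogue of tristetraprolin (log2 fold change -0.64, adjusted p = 0.0562), and BTG2, a partner of the same deadenylase named here by position (-0.997, adjusted p = 0.146). DESeq2 with the replicate block called ZFP36L1 (adjusted p = 0.000587) and BTG2 (0.00418). With the set of replicates as the block, edgeR called ZFP36L1 (adjusted p = 0.0186) but not BTG2 (0.0502).

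TNFAIP3 encodes A20, a ubiquitin-editing enzyme that restrains NF-kB signalling and is itself an NF-kB target. It had 764, 881, 505 and 527 CPM with SB203580 plus flagellin, 1454, 1456, 1179.8 and 941 CPM with flagellin and 152, 151, 109 and 116 CPM in PBS. The 3 groups did not overlap, and SB203580 plus flagellin stayed above PBS in every library. TNFAIP3 fell by 0.93 on the log2 scale (SE 0.134, edgeR adjusted p = 0.01). OTUD1, a deubiquitinase of the same signalling pathway, had 29.1, 25.004, 11.9 and 10.3 CPM with SB203580 plus flagellin, 52.7, 61.6, 26.7 and 16.3 CPM with flagellin and 28.9, 30.7, 13.03 and 12.7 CPM in PBS. Its levels differed between the sets of replicates more than between treatments, so the groups overlapped, and within pairs it fell by 1.01 (SE 0.150, edgeR adjusted p = 0.01). Of 25 tested genes of NF-kB feedback and subunits, these 2 fell, 12 were lower at an unadjusted p under 0.05, 23 had a log2 fold change below 0 and the median was -0.29. Over all genes tested 3.66% were lower at that unadjusted p and 47.5% were below 0. BIRC3, a ubiquitin ligase of the TNF receptor complex, had 394, 368, 319 and 336 CPM with SB203580 plus flagellin and 464, 547, 518 and 437 CPM with flagellin (log2 fold change -0.47, adjusted p = 0.0689). NFKBIA, the IkBα inhibitor, had 1162, 1005, 177 and 244 CPM with SB203580 plus flagellin and 1244, 1235, 564 and 332 CPM with flagellin (-0.60, SE 0.212, adjusted p = 0.466). DESeq2 with the replicate block called BIRC3 (adjusted p = 0.00219) but not NFKBIA (0.179). With the set of replicates as the block, edgeR called BIRC3 (adjusted p = 0.0247) but not NFKBIA (0.296). For NFKBIA the libraries of replicates 3 and 4 were lower by a larger factor than those of replicates 1 and 2, a difference of -0.89 (SE 0.315) that did not pass its own test (adjusted p = 0.9999).

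PLAUR, the receptor that holds urokinase at the cell surface, had 79.3, 79.2, 88.1 and 111 CPM with SB203580 plus flagellin, 161, 175, 168 and 185 CPM with flagellin and 50.4, 69.9, 47.3 and 64.3 CPM in PBS. The groups did not overlap, and PLAUR fell by 0.95 on the log2 scale (SE 0.135, edgeR adjusted p = 0.01). PLAU, urokinase itself, had 606, 687, 471 and 557 CPM with SB203580 plus flagellin, 1058, 1130.2, 1258 and 1079.5 CPM with flagellin and 519.8, 419, 305 and 444 CPM in PBS. Its SB203580 plus flagellin and flagellin libraries did not overlap either, and its log2 fold change of -0.98 (SE 0.190) came to an edgeR adjusted p of 0.0528, just outside the threshold. PLAU was called by DESeq2 with the replicate block (adjusted p = 0.000112) and by edgeR with the set of replicates as the block (0.0222). F3, tissue factor, was at -0.41 (adjusted p = 0.374), and TIMP3, a metalloproteinase inhibitor, was at -0.41 (adjusted p = 0.464). Of 17 tested genes of this list, PLAUR fell, 11 were below 0 and the median was -0.35. SDC4, named by position, is syndecan 4, a heparan sulfate proteoglycan of focal adhesions. SDC4 had 484, 537, 633 and 610.2 CPM with SB203580 plus flagellin, 791, 743, 1229.8 and 1003 CPM with flagellin and 431, 462, 468 and 455 CPM in PBS, with no overlap between the groups. It fell by 0.72 (SE 0.107, edgeR adjusted p = 0.01).

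RND1, a protein that loosens actin and cell adhesion, had the lowest log2 fold change among the 25 genes. Its levels were 136, 115, 36.3 and 51.3 CPM with SB203580 plus flagellin, 254, 226, 131 and 110.4 CPM with flagellin and 21.6, 17.3, 2.98 and 3.56 CPM in PBS. Replicates 1 and 2 were higher than replicates 3 and 4 in all 3 groups, so SB203580 plus flagellin and flagellin overlapped across sets and not within them. RND1 fell by 1.24 (SE 0.232, edgeR adjusted p = 0.0497, just inside the threshold). ITPKC, a kinase that phosphorylates inositol trisphosphate, had 223, 254, 117 and 141 CPM with SB203580 plus flagellin, 367, 365, 358 and 214 CPM with flagellin and 104, 121, 59.4 and 56.1 CPM in PBS. Only flagellin replicate 4, low for its group, reached into the SB203580 plus flagellin range, and ITPKC fell by 0.88 (SE 0.163, edgeR adjusted p = 0.045). TLNRD1, a talin-related protein that bundles actin, had 14.01, 15.7, 20.98 and 16.3 CPM with SB203580 plus flagellin, 26.1, 25.6, 28.96 and 24.3 CPM with flagellin and 19.4, 22.6, 21.4 and 21.8 CPM in PBS. It fell by 0.66 (SE 0.0900, edgeR adjusted p = 0.01), and 3 of the 4 SB203580 plus flagellin libraries lay below every PBS library.

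**Figure D2:**
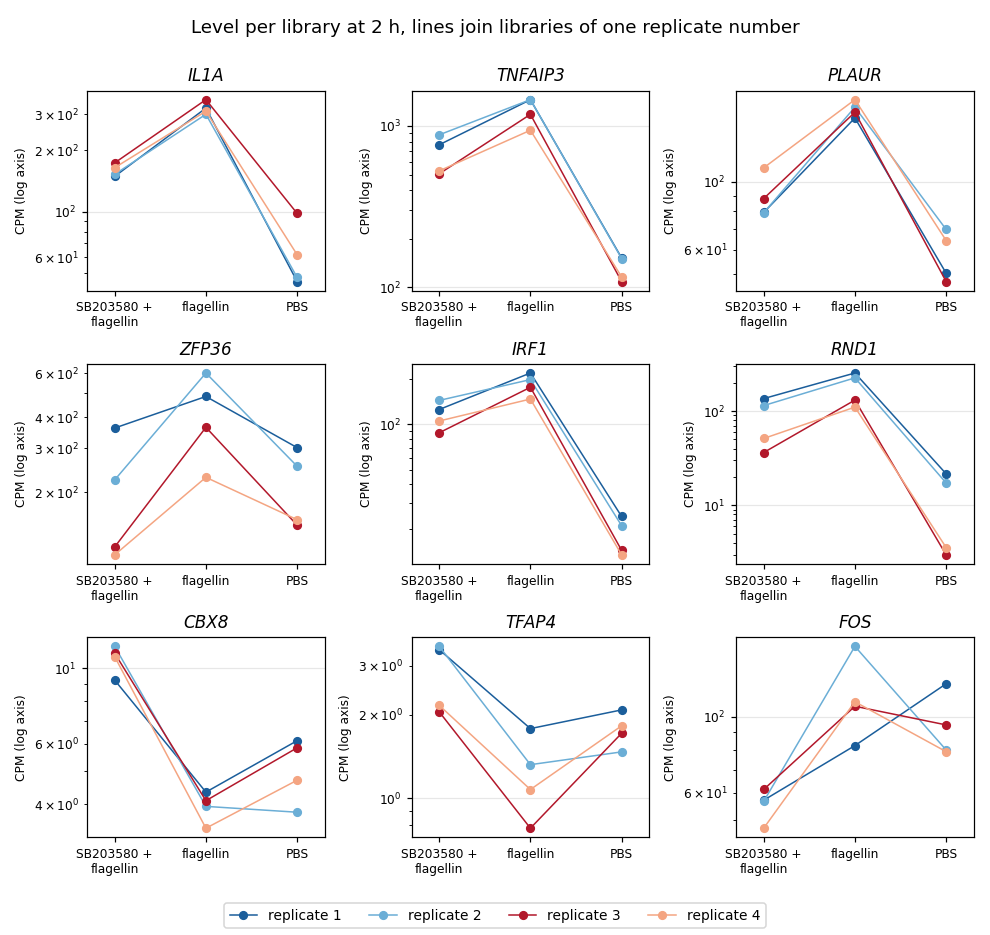
Level in CPM on a log axis in each library of SB203580 plus flagellin, flagellin and PBS at 2 h (left to right) for 9 genes; each line joins the libraries of 1 replicate number. IL1A, TNFAIP3, PLAUR, IRF1 and RND1 with SB203580 plus flagellin lie between flagellin and PBS in every line. CBX8 and TFAP4 lie highest with SB203580 plus flagellin. FOS did not pass the adjusted threshold in edgeR with the replicate block.

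Several transcriptional regulators were among the lowered genes. IRF1, a factor of interferon and inflammatory responses, had 126, 144, 87.9 and 105 CPM with SB203580 plus flagellin, 220.0, 199, 177 and 148 CPM with flagellin and 24.3, 21.1, 14.5 and 13.5 CPM in PBS. No groups overlapped, and IRF1 fell by 0.69 (SE 0.117, edgeR adjusted p = 0.0245) while remaining above PBS in every library. MEF2D, a MADS-box factor whose family p38 phosphorylates, had 92.5, 86.2, 113 and 117 CPM with SB203580 plus flagellin and 117, 116, 166 and 155 CPM with flagellin, and fell by 0.43 (SE 0.0730, edgeR adjusted p = 0.0228). MEF2D was the single called gene among 27 tested p38 kinases, activators and substrates, whose median was 0.0058, with 12 of 27 below 0, or -0.060 with 17 of 27 below 0 without SB203580 plus flagellin replicate 1. ETV3, an ETS-family repressor, fell by 0.50 (SE 0.0809, adjusted p = 0.0207), with 265, 324, 335 and 309 CPM in SB203580 plus flagellin and 375, 383, 535 and 465 CPM in flagellin. TGIF2, a homeobox repressor of TGF-β signalling, fell by 0.74 (SE 0.131, adjusted p = 0.0324), with 4.63, 8.21, 7.67 and 7.62 CPM in SB203580 plus flagellin and 9.84, 11.7, 11.7 and 12.9 CPM in flagellin. In TGIF2 the lowest library was SB203580 plus flagellin replicate 1, and the groups were apart without it as well. TSC22D1, a leucine zipper protein named by position, fell by 0.57, SERTAD3, a transcriptional coregulator, by 0.56, and CSRNP2, a nuclear protein of an AXIN1-induced family, by 0.36 (adjusted p = 0.0208, 0.01 and 0.0426). SERTAD3 had 29.7, 38.97, 34.9 and 33.6 CPM with SB203580 plus flagellin, 55.3, 46.9, 52.7 and 47.8 CPM with flagellin and 54.5, 50.9, 48.3 and 51.9 CPM in PBS, so that SB203580 plus flagellin was below both other groups in every library.

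The other lowered genes were CLCF1, TNFSF9, COQ10B and a gene without a symbol. CLCF1, a cytokine of the IL-6 family, had 10.4, 10.2, 12.9 and 12.4 CPM with SB203580 plus flagellin and 14.4, 14.9, 16.99 and 20.6 CPM with flagellin, and fell by 0.54 (SE 0.0990, edgeR adjusted p = 0.0405). TNFSF9, the 4-1BB ligand that costimulates T cells, had 16.5, 16.4, 15.4 and 15.9 CPM with SB203580 plus flagellin and 27.6, 27.8, 20.5 and 22.9 CPM with flagellin, and fell by 0.61 (SE 0.100, edgeR adjusted p = 0.0208). COQ10B, a coenzyme Q binding protein of mitochondria, fell by 0.48 (SE 0.0847, adjusted p = 0.0324) with no overlap between the groups. The gene ENSSSCG00000003079 fell by 0.50 (SE 0.0821, adjusted p = 0.0208), and its groups overlapped between the sets of replicates.

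**Figure D3:**
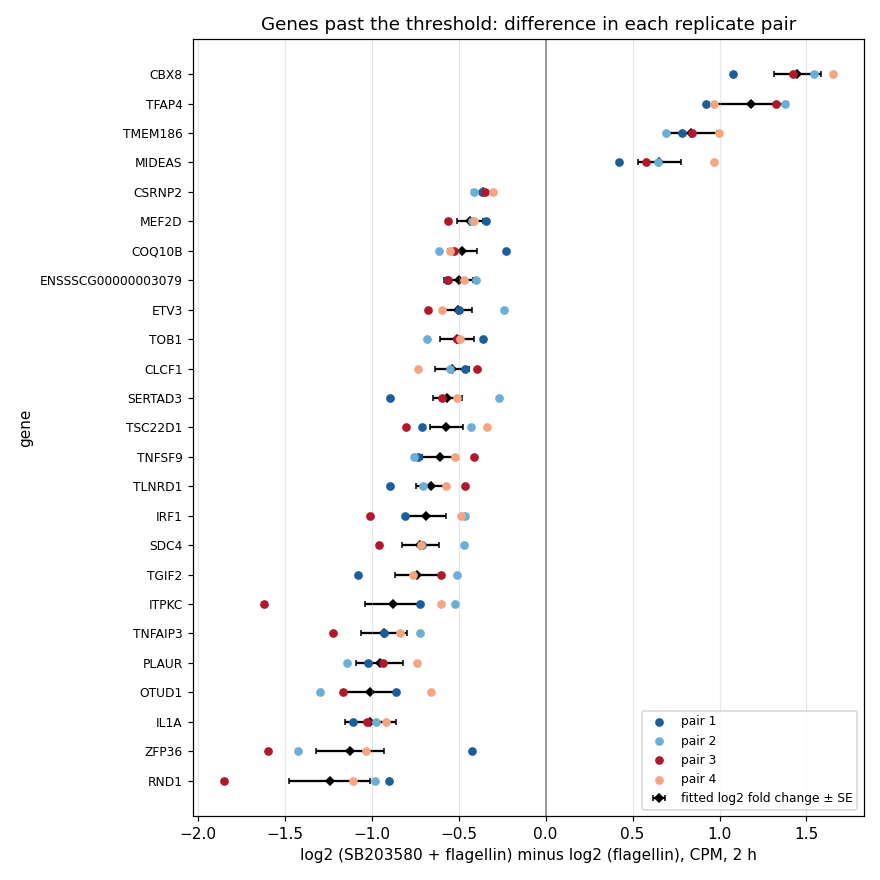
Difference in log2 CPM between SB203580 plus flagellin and flagellin in each replicate pair (coloured points, x axis) and fitted log2 fold change ± SE (black diamonds) for the 25 genes past the threshold, listed down the page. All points of a gene lie on the same side of 0; RND1, ITPKC and ZFP36 have the widest spread between pairs among the lowered genes.

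CBX8, a chromodomain subunit of the Polycomb repressive complex PRC1, had the smallest adjusted p of all genes and rose. It had 9.24, 11.6, 11.1 and 10.8 CPM with SB203580 plus flagellin, 4.34, 3.94, 4.09 and 3.40 CPM with flagellin and 6.14, 3.79, 5.85 and 4.70 CPM in PBS. All 4 SB203580 plus flagellin libraries lay above all libraries of both other groups. The log2 fold change was 1.45 (SE 0.136, edgeR adjusted p = 0.000175), with 1.08, 1.54, 1.42 and 1.65 in the 4 pairs. CBX8 was called in each of 8 fits that left out 1 library and in the fit without the replicate block.

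CBX8 lies on chromosome 12 at 2562335 to 2567624 on the plus strand in the coordinates of the deposited table, whose pig assembly no source used here names. CBX2, another PRC1 chromodomain gene, lies at 2569782 to 2580318 on the minus strand, 2158 bases from it. CBX2 had 8.79, 11.1, 13.2 and 13.3 CPM with SB203580 plus flagellin, 7.87, 6.91, 5.498 and 4.96 CPM with flagellin and 8.405, 6.32, 6.76 and 8.86 CPM in PBS. The SB203580 plus flagellin and flagellin libraries did not overlap, but the log2 fold change of 0.88 (SE 0.182) had an edgeR adjusted p of 0.0661. Its pairs gave 0.16, 0.68, 1.25 and 1.41, with the largest differences in replicates 3 and 4. CBX2 was called by DESeq2 with the replicate block (adjusted p = 0.000863) and by edgeR with the set of replicates as the block (0.0186). Of 20 tested Polycomb genes, CBX8 rose, 9 were below 0 and the median was 0.06. Without SB203580 plus flagellin replicate 1, 2 genes of the list were called. Whether counting used strand is not given in the sources used here, and reads that run past the end of CBX8 or CBX2 toward the other cannot be assigned to a strand.

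TFAP4, a basic helix-loop-helix factor, had 3.43, 3.53, 2.05 and 2.16 CPM with SB203580 plus flagellin, 1.78, 1.32, 0.781 and 1.08 CPM with flagellin and 2.08, 1.47, 1.72 and 1.83 CPM in PBS. It rose by 1.18 on the log2 scale (SE 0.213, edgeR adjusted p = 0.0341), and each SB203580 plus flagellin library was above the flagellin and the PBS library of its number. TMEM186, a mitochondrial protein of complex I assembly, had 7.14, 6.49, 6.04 and 6.61 CPM with SB203580 plus flagellin and 4.12, 4.00, 3.34 and 3.29 CPM with flagellin, and rose by 0.84 (SE 0.150, edgeR adjusted p = 0.0328). MIDEAS, the scaffold of a mitotic histone deacetylase complex, had 84.3, 96.01, 81.7 and 85.5 CPM with SB203580 plus flagellin, 62.98, 61.3, 54.8 and 43.6 CPM with flagellin and 52.4, 50.9, 55.1 and 44.3 CPM in PBS. MIDEAS rose by 0.65 (SE 0.123, edgeR adjusted p = 0.0451), and all SB203580 plus flagellin libraries lay above both other groups. In the 8 fits that left out 1 library, the log2 fold change was 1.02 to 1.29 for TFAP4, 0.77 to 0.90 for TMEM186 and 0.57 to 0.72 for MIDEAS.

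Immediate early transcription factors, which are transcribed within minutes of a signal, lay mostly below 0 without passing the adjusted threshold in edgeR with the replicate block. Of 24 tested, 0 were called, 20 had a log2 fold change below 0, 13 were lower and 1 higher at an unadjusted p under 0.05, and the median was -0.37. Over all genes tested 47.5% were below 0, and 3.66% were lower and 3.35% higher at that unadjusted p. FOS, a subunit of AP-1, had 56.96, 56.5, 61.2 and 47.2 CPM with SB203580 plus flagellin, 82.3, 161, 107 and 111 CPM with flagellin and 125, 79.9, 94.7 and 79.04 CPM in PBS. SB203580 plus flagellin lay below both other groups in every library, with a log2 fold change of -1.05 (SE 0.206, edgeR adjusted p = 0.0562). FOSB had 21.7, 20.1, 22.6 and 12.8 CPM with SB203580 plus flagellin and 24.7, 52.8, 48.98 and 36.8 CPM with flagellin (log2 fold change -1.08, adjusted p = 0.0886), and JUNB had 214, 169, 76.8 and 81.3 CPM with SB203580 plus flagellin and 278, 313, 222 and 143 CPM with flagellin (-0.90, adjusted p = 0.108). These AP-1 genes were lower in 4 of 4 pairs, and whether they were called depended on the fit. DESeq2 with the replicate block called FOS (adjusted p = 0.000163), FOSB (0.00247) and JUNB (0.00209). With the set of replicates as the block, edgeR called FOS (adjusted p = 0.0170) and JUNB (0.0328) but not FOSB (0.139). In replicates 3 and 4 alone edgeR called 7 of 22 tested genes of this list, where it called 1.20% of all genes tested. In replicates 1 and 2 alone, and without the replicate block, it called 0. EGR1, a zinc finger factor downstream of ERK and SRF, lay on the other side of 0, with 97.5, 119.9, 97.9 and 65.9 CPM in SB203580 plus flagellin, 50.3, 93.3, 74.8 and 57.3 CPM in flagellin and 47.1, 47.9, 52.95 and 37.1 CPM in PBS. EGR1 was higher in 4 of 4 pairs with a log2 fold change of 0.47 (SE 0.128, edgeR adjusted p = 0.217).

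In edgeR with the replicate block, no feedback gene of MAP kinase or receptor signalling named in this paragraph passed the adjusted threshold. Members of these lists lay on both sides of 0. DUSP1, a phosphatase that inactivates p38 and JNK, had 169, 141, 166 and 173 CPM with SB203580 plus flagellin, 259.6, 340.1, 257 and 233 CPM with flagellin and 352, 274, 211 and 204 CPM in PBS (log2 fold change -0.73, SE 0.150, edgeR adjusted p = 0.0661). Its SB203580 plus flagellin libraries lay below every library of both other groups. DUSP4 was at -0.90 (adjusted p = 0.11), and of 11 tested dual-specificity phosphatases 0 were called, 6 were below 0 and the median was -0.25. DUSP2 (log2 fold change 0.59, SE 0.346, adjusted p = 0.868) and DUSP10 (0.30, SE 0.133, adjusted p = 0.662), of the same list and chosen after their values were seen, were higher in 4 of 4 pairs. Of 20 tested kinases and feedback genes of the ERK and JNK pathways 0 were called, 15 were below 0 and the median was -0.028. ERRFI1, which blocks the EGF receptor kinase, had 101, 114, 127 and 109 CPM with SB203580 plus flagellin and 162, 188, 251 and 173 CPM with flagellin (-0.77, adjusted p = 0.0634). Among the ligands of that receptor, AREG was at -0.84 (adjusted p = 0.489), EREG at -0.76 (0.395) and HBEGF at -0.57 (0.838), and 0 of 11 tested genes of the list were called, with 7 below 0 and a median of -0.12. SOCS3, which blocks JAK signalling by the gp130 receptors, had 2.54, 4.06, 1.54 and 0.721 CPM with SB203580 plus flagellin and 4.15, 7.24, 5.53 and 3.40 CPM with flagellin (-1.36, adjusted p = 0.079), and 0 of 15 tested genes of its list were called, with 9 below 0 and a median of -0.029. IER3, an early gene of cell survival, had 220.0, 288, 202 and 244 CPM with SB203580 plus flagellin, 436, 408, 379 and 331 CPM with flagellin and 140.3, 136, 201 and 173 CPM in PBS (-0.71, adjusted p = 0.146), with no overlap between SB203580 plus flagellin and flagellin. GADD45A, a stress gene that binds the p38 activator MEKK4, was on the higher side, with 102, 114, 76.1 and 60.9 CPM in SB203580 plus flagellin and 70.7, 74.8, 32.1 and 17.1 CPM in flagellin (1.07, adjusted p = 0.0661). DESeq2 with the replicate block called DUSP1 (adjusted p = 0.000989), DUSP4 (0.00219), ERRFI1 (0.000791), SOCS3 (0.00154), IER3 (0.00959) and GADD45A (0.000218). It did not call AREG (0.149), EREG (0.0916) or HBEGF (0.644). With the set of replicates as the block, edgeR called DUSP1 (adjusted p = 0.0200) and ERRFI1 (0.0419) but not DUSP4, SOCS3, IER3 or GADD45A. Without the replicate block edgeR called none of these genes.

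Of 15 tested chemokines, the proteins that recruit neutrophils and lymphocytes, 11 had a log2 fold change below 0, 0 were called and the median was -0.10. Without SB203580 plus flagellin replicate 1 the median was -0.36 with 9 of 15 below 0, and without the replicate block it was 0.014 with 7 of 15 below 0. CXCL8 had 326, 395, 454 and 567 CPM with SB203580 plus flagellin, 608, 617, 755 and 638 CPM with flagellin and 51.4, 46.1, 22.6 and 13.2 CPM in PBS. Although the SB203580 plus flagellin and flagellin libraries did not overlap, the log2 fold change of -0.57 had an SE of 0.358 and an edgeR adjusted p of 0.875. CXCL2 had 286, 314, 154 and 192 CPM with SB203580 plus flagellin, 699, 647, 433 and 355 CPM with flagellin and 88.4, 30.9, 8.47 and 7.12 CPM in PBS (log2 fold change -1.17, SE 0.403, adjusted p = 0.465). CCL20, named by position, had 139.7, 118, 75.9 and 114 CPM with SB203580 plus flagellin, 319.7, 271, 207 and 195 CPM with flagellin and 29.7, 16.2, 2.59 and 2.24 CPM in PBS (-1.14, SE 0.463, adjusted p = 0.603). AMCF-II, a pig CXC chemokine of neutrophils, was at 19.9, 27.7, 29.97 and 35.6 CPM with SB203580 plus flagellin and 57.3, 51.7, 90.2 and 92.7 CPM with flagellin (-1.33, SE 0.458, adjusted p = 0.464). CXCL2, CCL20 and AMCF-II did not overlap between SB203580 plus flagellin and flagellin in any library. Each SE rests on the spread over all 24 libraries, PBS and 24 h included, and not on the pairs alone. The 4 pairs gave -0.90, -0.64, -0.73 and -0.17 for CXCL8 and -1.29, -1.05, -1.49 and -0.88 for CXCL2. For CCL20 they were -1.19, -1.20, -1.45 and -0.77, and for AMCF-II -1.52, -0.90, -1.59 and -1.38. A fit on replicates 3 and 4 alone called 4 of 15 chemokines, among them AMCF-II, CXCL2 and CCL20 (edgeR adjusted p = 0.0057, 0.0307 and 0.0389). The same fit called 1.20% of all genes tested. CXCL8 was not called in that fit (0.665), and replicates 1 and 2 alone gave 0 called chemokines. DESeq2 with the replicate block did not call CXCL8, CXCL2, CCL20 or AMCF-II (adjusted p = 0.876, 0.250, 0.534 and 0.266). Reads of similar CXC chemokine genes could be split between copies in counting, so the levels of CXCL2 and AMCF-II are uncertain.

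Of 20 tested cytokines and colony-stimulating factors, IL1A fell, 12 were below 0 and the median was -0.45. CSF2, the growth factor of granulocytes and macrophages, had 15.003, 7.37, 4.78 and 7.99 CPM with SB203580 plus flagellin and 27.6, 29.4, 8.96 and 15.4 CPM with flagellin (log2 fold change -1.12, SE 0.270, edgeR adjusted p = 0.136). LIF, of the IL-6 family, had 73.7, 77.9, 16.6 and 28.1 CPM with SB203580 plus flagellin, 131, 107, 69.1 and 45.7 CPM with flagellin and 19.004, 6.35, 3.89 and 3.80 CPM in PBS (-0.99, SE 0.326, adjusted p = 0.424). TNF, named by position, had 29.9, 35.1, 0.365 and 1.59 CPM with SB203580 plus flagellin, 33.3, 40.8, 6.15 and 2.44 CPM with flagellin and 3.68, 0.469, 0.245 and 0 CPM in PBS (-0.93, SE 0.630, adjusted p = 0.901). LIF and TNF overlapped between SB203580 plus flagellin and flagellin. DESeq2 with the replicate block called CSF2 (adjusted p = 0.0059) but not LIF (0.104) or TNF (0.984). With the set of replicates as the block, edgeR called none of them (adjusted p = 0.0880, 0.476 and 0.809). IL6 stayed near the limit of counting, at 0.240, 0.395, 0.393 and 0.231 CPM with SB203580 plus flagellin and 0.431, 0.451, 0.594 and 0.312 CPM with flagellin, and CSF1, the macrophage growth factor, was at 0.21 (SE 0.206, adjusted p = 0.974). IL15, also at a low level, lay on the higher side, with 0.618, 0.452, 1.10 and 0.894 CPM with SB203580 plus flagellin. It had 0.369, 0.271, 0.312 and 0.283 CPM with flagellin, so these groups did not overlap (log2 fold change 1.28, SE 0.391, edgeR adjusted p = 0.326). IL1B, named by position, did not pass the filter on low counts.

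PTGS2 is the inducible cyclooxygenase of prostaglandin synthesis and its mRNA carries AU-rich elements. It had 21.1, 34.2, 86.7 and 102 CPM with SB203580 plus flagellin, 82.5, 92.8, 325 and 299 CPM with flagellin and 58.6, 71.6, 155 and 101 CPM in PBS. In each replicate number SB203580 plus flagellin was below flagellin, in 3 of the 4 also below PBS, and the SB203580 plus flagellin mean was 30.5% of the flagellin mean. The log2 fold change of -1.71 was the lowest among the genes named here, but its SE was 0.403 and its edgeR adjusted p 0.14. Within replicates 3 and 4 alone, in a fit on 2 pairs, it was -1.72 (SE 0.181, adjusted p = 0.0038), and within replicates 1 and 2 alone -1.704 (SE 0.677). DESeq2 with the replicate block called PTGS2 (adjusted p = 0.00577). With the set of replicates as the block, edgeR did not call it (adjusted p = 0.0502). In edgeR with the replicate block 0 of 11 tested prostaglandin genes were called, and PTGER2, a receptor of prostaglandin E, was at 0.45 (adjusted p = 0.305).

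Genes on the higher side included targets of the aryl hydrocarbon receptor, which senses xenobiotics, and a p38 activator. CYP1A1, a monooxygenase induced through that receptor, had 54.9, 53.9, 291 and 191 CPM with SB203580 plus flagellin, 28.7, 19.1, 62.3 and 78.7 CPM with flagellin and 20.1, 103, 547 and 153 CPM in PBS (log2 fold change 1.39, SE 0.455, edgeR adjusted p = 0.419). CYP1B1, of the same family, had 289.9, 252, 829.7 and 658 CPM with SB203580 plus flagellin, 166, 139, 217 and 395 CPM with flagellin and 126, 195, 878 and 463 CPM in PBS (1.01, SE 0.259, adjusted p = 0.175). Both were above flagellin in 4 of 4 pairs, while PBS replicate 3 was higher than any SB203580 plus flagellin library. Of 11 tested genes of the receptor and its targets 0 were called, 3 were below 0 and the median was 0.17, or 0.056 without SB203580 plus flagellin replicate 1. MAP2K6, which encodes the p38 activator MKK6, had 1.99, 1.95, 11.99 and 12.9 CPM with SB203580 plus flagellin, 1.45, 1.80, 2.22 and 2.58 CPM with flagellin and 1.86, 2.57, 3.08 and 2.54 CPM in PBS. SB203580 plus flagellin replicates 3 and 4 stood above all other libraries of MAP2K6, and replicates 1 and 2 lay within the range of flagellin and PBS. Its log2 fold change was 1.52 (SE 0.404, edgeR adjusted p = 0.196). DESeq2 with the replicate block called MAP2K6 (adjusted p = 0.0126) and CYP1B1 (0.00561) but not CYP1A1 (0.168). With the set of replicates as the block, edgeR called none of them (adjusted p = 0.0838, 0.0710 and 0.287). MAPK14, which encodes p38α, was at 0.12 (SE 0.0860), MAPKAPK2 at -0.11 (SE 0.0769), and HSPB1, a heat shock protein phosphorylated by MK2, at 0.0058 (SE 0.229), with adjusted p of 0.925, 0.9 and 0.999. TLR5, the receptor of flagellin, had 0.721, 0.790, 0.983 and 1.04 CPM with SB203580 plus flagellin and 0.769, 0.782, 1.12 and 1.05 CPM with flagellin (-0.067, SE 0.259, adjusted p = 0.993).

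**Figure D4:**
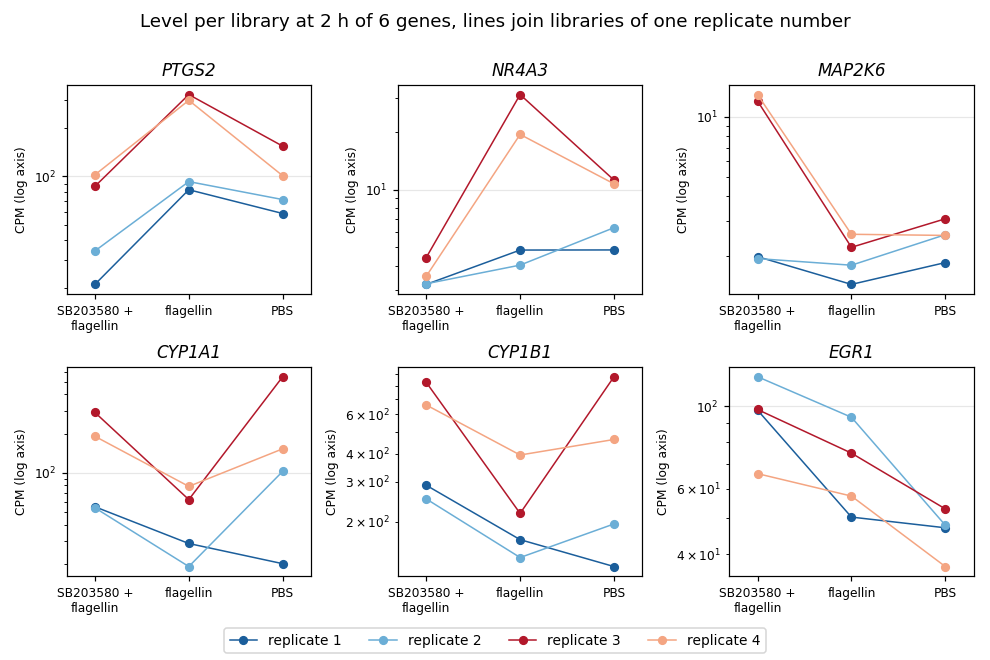
Level in CPM on a log axis in each library of SB203580 plus flagellin, flagellin and PBS at 2 h (left to right) for 6 genes. Each line joins the libraries of 1 replicate number. The 6 genes did not pass the adjusted threshold in edgeR with the replicate block. MAP2K6 with SB203580 plus flagellin stands out in replicates 3 and 4, at 11.99 and 12.9 CPM, and not in replicates 1 and 2, and NR4A3 with flagellin is high in replicates 3 and 4 only.

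The effect was then set side by side in the 2 sets of replicates. Among the 21 lowered genes the median log2 fold change was -0.63 in replicates 1 and 2 and -0.64 in replicates 3 and 4, and all 21 were below 0 in each. These genes were chosen by the fit over all 4 pairs, so a like direction in both sets is largely fixed by that choice. A fit on replicates 1 and 2 alone called 0 genes, 247 at an unadjusted p under 0.05, and a fit on replicates 3 and 4 alone called 167 genes (1.20%), 49 higher and 118 lower. That difference in counts is no test of a difference in effect, and the test of the difference itself called 0 genes with edgeR (324 at an unadjusted p under 0.05) and 2 with DESeq2, MAP2K6 and NR4A3. For MAP2K6 the effect in replicates 3 and 4 exceeded that in replicates 1 and 2 by 2.098 on the log2 scale (SE 0.320, edgeR adjusted p = 0.0966). NR4A3, an orphan nuclear receptor of the immediate early class, had 3.19, 3.22, 4.41 and 3.52 CPM with SB203580 plus flagellin, 4.83, 4.03, 31.4 and 19.4 CPM with flagellin and 4.83, 6.32, 11.2 and 10.7 CPM in PBS. Its high libraries were flagellin replicates 3 and 4, and its difference between sets was -2.21 (SE 0.398, edgeR adjusted p = 0.312).

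Flagellin against PBS at 2 h gives the response on which SB203580 was tested, and the comparisons share the flagellin libraries, so their values are set side by side without a joint count. With the same fit, flagellin raised 168 (1.19%) and lowered 94 (0.663%) of the genes tested, 1.85% in all. The lowered calls varied most with the libraries used. They numbered 9 without PBS replicate 3, 11 without flagellin replicate 3, 12 without flagellin replicate 1, 159 without PBS replicate 4, 27 in replicates 3 and 4 alone and 4 without the replicate block. RND1 had a log2 fold change of -1.24 for SB203580 plus flagellin over flagellin and 4.34 for flagellin over PBS (adjusted p = 1.71e-07). For IRF1 these were -0.69 and 3.37 (2.56e-10), for TNFAIP3 -0.93 and 3.25 (1.36e-09), for IL1A -1.01 and 2.395 (1.65e-07), and for ITPKC -0.88 and 2.003 (3.66e-06). In contrast, TOB1 was at -0.02, SERTAD3 at -0.02, COQ10B at -0.06 and CBX8 at -0.37 for flagellin over PBS, with adjusted p of 0.962, 0.954, 0.831 and 0.222. CXCL8, CXCL2 and CCL20 rose by 4.35, 4.502 and 4.72 with flagellin (adjusted p = 3.47e-05, 9.41e-05 and 0.000296).

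At 24 h, SB203580 plus flagellin against flagellin gave 1 called gene (0.00706%), CYP1B1, which rose by 1.93 on the log2 scale (edgeR adjusted p = 0.0492). The median log2 fold change of the 21 genes lowered at 2 h was -0.14 at 24 h, with a range of -0.33 to 0.50 and 17 of 21 below 0. For IL1A it was -0.18, for TNFAIP3 -0.087, for PLAUR -0.10 and for RND1 0.50. The 21 genes were chosen by their values at 2 h, so smaller values at 24 h follow in part from that choice. CBX8 was at 0.58 (adjusted p = 0.104), MAP2K6 at 2.42 (0.051) and CYP1A1 at 3.11 (0.051). The difference between the effects at 2 h and at 24 h passed the threshold for 0 genes with edgeR, with 643 at an unadjusted p under 0.05 and 18 genes called by DESeq2, so the smaller values at 24 h are not shown to differ by the edgeR fit.

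Markers of ciliated, club and squamous cells each lay to one side of 0, while basal (5 of 11 below 0), fibroblast (4 of 11), endothelial (2 of 5), lymphocyte (2 of 4), myeloid (3 of 6) and ionocyte and neuroendocrine markers (3 of 4) lay on both sides. All 20 tested ciliated cell markers had a log2 fold change below 0, with a median of -0.78 and 0 called, against 18 of 20 and -0.51 without SB203580 plus flagellin replicate 1. Their summed level was 55.3 to 86.0 CPM with SB203580 plus flagellin, against 51.1 to 155.5 CPM with flagellin and 42.1 to 135.1 CPM in PBS. The medians in the 4 pairs were -1.60, -0.94, -0.43 and 0.26, so the pair numbered 4 lay on the other side of 0. The 13 tested club and secretory cell markers were all below 0 with a median of -0.37 and 0 called (12 of 13 and -0.22 without SB203580 plus flagellin replicate 1), with summed levels of 1884 to 4251 CPM with SB203580 plus flagellin and 2089 to 4894 CPM with flagellin. Squamous epithelium markers were all above 0, 13 of 13, with a median of 0.12, which became -0.17 with 10 of 13 below 0 without SB203580 plus flagellin replicate 1. MUC5AC, a gel-forming mucin named by position, was at -0.38 (SE 0.387, edgeR adjusted p = 0.979), and LCN2, an iron-binding antimicrobial protein, at -0.48 (SE 0.473, adjusted p = 0.975). Lymphocyte markers summed to 3.17 to 4.74 CPM with SB203580 plus flagellin and 3.34 to 4.31 CPM with flagellin. Macrophage and myeloid markers summed to 39.2 to 105.8 CPM with SB203580 plus flagellin and 39.8 to 78.3 CPM with flagellin. Of these 14 genes, 7 to 9 had 0 counts in a library with SB203580 plus flagellin and 6 to 8 with flagellin. The part of these shifts in the results above was not tested.

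**Figure D5:**
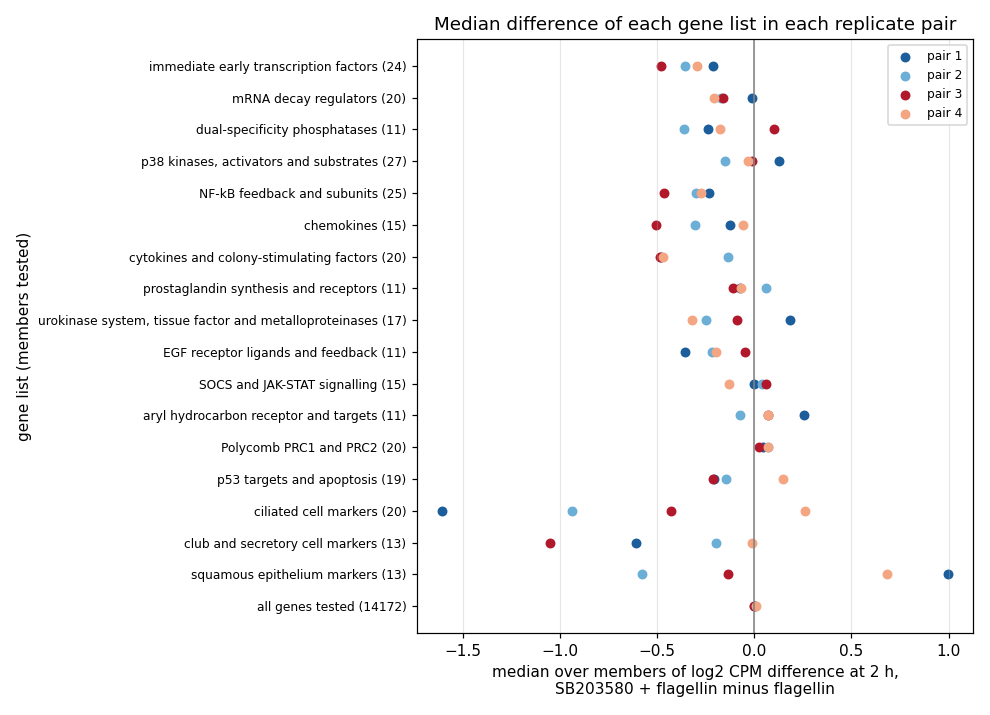
Median log2 CPM difference between SB203580 plus flagellin and flagellin at 2 h over the tested members of each gene list (rows, number of members in brackets), with 1 point for each replicate pair. Several lists lie below 0 in all 4 pairs, among them immediate early transcription factors, NF-kB feedback and subunits, chemokines, cytokines and club markers. The ciliated markers run from -1.60 to 0.26, and the median of all genes lies near 0.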

How the data were processed

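RNA of 24 libraries (6 groups of 4) was measured by RNA sequencing, and the deposited values are whole-number read counts per gene, not normalized, per the file headers. STAR 2.4.0a, Subread 1.4.6-p1 and featureCounts are named in the submitters' processing notes, without their order. The same notes name the mouse build GRCm38, while the deposited counts carry identifiers of pig genes. The pig assembly is not given in the sources used here. Of 31868 features, 25880 pig genes were used. A table of pig gene identifiers named 14857 of them, and 1606 more were named by position, where exactly 1 RefSeq gene overlapped at least 0.5 of the spans; 94.7% of 12522 genes that had both names had the same symbol or a synonym.

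Totals were 26345945 to 36267289 counts per library. Genes were kept by filterByExpr, scaled with TMM (0.836 to 1.07) and tested with edgeR 4.0.16 (R 4.3.3; robust quasi-likelihood F test) on all 24 libraries, with a term per group and a block for the replicate number at each time, leaving 12 residual degrees of freedom; p-values are two-sided and Benjamini-Hochberg adjusted over 14172 genes, with a threshold of 0.05. Each SE was taken as the size of the log2 fold change over the square root of its F value. The pair differences use log2 CPM with a prior count of 2. The fits were tested on simulated data. The replicate numbers come from the labels, and deviations from the group means correlated at 0.658 to 0.797 between SB203580 plus flagellin and flagellin libraries of the same number. Within replicates 1 and 2 this was -0.0064 and within replicates 3 and 4 0.163, so the pairing mostly carries the difference between these sets. Without the block 1 gene was called in place of 25.

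Alternatives were no block, the set of replicates as the block, each set alone, the compared groups only, RLE factors, no filter, voom (limma 3.58.1), DESeq2 1.42.0, a looser threshold, each library left out, and, chosen after seeing the data, the pair numbered 1 left out. Floors cover counting error only. The genes named are those past the threshold, a list of 30 genes, and up to 4 members with the smallest p from each of 14 gene lists; a few results are not reported here. Members and lists were chosen with earlier results of these data known, so their counts are descriptions.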

Additional observations from a re-analysis of the deposited data

Results flagged for a closer look

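In 6 of 174 sets of 4 libraries (1 gene in 1 group), 1 library lay far from the other 3. The rule gives about 1 in 20 sets when all 4 libraries vary alike. Replicates 1 and 2 differed in level from replicates 3 and 4, and the genes share libraries. The 6 of 174 therefore cannot be judged against that rate. In SB203580 plus flagellin replicate 1, the library that stood apart, TGIF2 was low at 4.63 CPM, against 7.62 to 8.21 CPM in the other 3 libraries, and LRIG3, a regulator of receptor kinases, was low at 56.2 CPM, against 95.6 to 102.9 CPM. In SB203580 plus flagellin replicate 2, EREG, an EGF receptor ligand, was low at 97.5 CPM, against 166 to 180.2 CPM, and CSF3, the granulocyte growth factor, was high at 1.16 CPM, against 0.112 to 0.172 CPM. In SB203580 plus flagellin replicate 3, HBEGF was high at 55.2 CPM, against 37.4 to 37.9 CPM. In flagellin replicate 4, ITPKC was low at 214 CPM, against 358 to 367 CPM. Of these genes TGIF2 and ITPKC were among the 25 called.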

How the results depend on the processing

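SB203580 plus flagellin against flagellin at 2 h called 25 genes. The count was 1 with no replicate block, 53 with the set of replicates as the block, 138 with DESeq2, 12 with the compared groups only, 0 in replicates 1 and 2 alone, 167 in replicates 3 and 4 alone, 63 at an adjusted p under 0.1 and 1 without the pair numbered 1. Leaving out 1 library gave 2 to 27: 18, 27, 2 and 9 without SB203580 plus flagellin replicates 1 to 4, and 12, 18, 2 and 8 without flagellin replicates 1 to 4. All 25 genes kept their sign under every alternative run; over these alternatives 208 of 450 values kept the call and 242 lost it. Of the 25, DESeq2 called 25, voom 24, RLE factors 24, no filter 20, replicates 3 and 4 alone 18 and the compared groups only 4. The causes of these differences were not tested, beyond the fewer samples of some fits.

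Flagellin against PBS at 2 h called 262 genes, and 46 with no replicate block, 547 with DESeq2, 161 with the compared groups only, 16 in replicates 1 and 2 alone, 141 without the pair numbered 1 and 95 to 297 with 1 library left out. The difference between 2 h and 24 h called 0 genes, but 18 with DESeq2 and 10 in replicates 3 and 4 alone. The difference between the sets of replicates called 0 genes, but 2 with DESeq2. Values near 0 changed sign: MAPK14 was -0.030 and CSF1 -0.19 in replicates 1 and 2 alone, and TLR5 was 0.0235 without flagellin replicate 2 and 0.0227 without SB203580 plus flagellin replicate 1. HSPB1 (0.01) was -0.015 with the compared groups only, -0.016 with voom, -0.041 in replicates 3 and 4 alone, -0.13 without the pair numbered 1, and -0.20 to 0.16 with 1 library left out, at -0.0073, -0.0020, -0.033 and -0.046 in 4 of these fits. Genes at a few CPM, such as TFAP4 and SOCS3, rest on fewer counts than most genes named.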

Other observations

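Other gene groups were examined with the same fit for SB203580 plus flagellin against flagellin at 2 h. Of 17 tested cAMP and CREB-responsive genes 0 were called, 13 were below 0, 9 were lower at an unadjusted p under 0.05 and the median log2 fold change was -0.39. Over all genes tested 47.5% were below 0 and 3.66% were lower at that unadjusted p. DUSP1, FOSB and AREG are members of this cAMP list and of those described above. Of 21 tested circadian clock genes 0 were called and the median was -0.0076, with PER1 at -0.39 (SE 0.168) and PER2 at -0.41 (SE 0.170), both chosen after their values were seen. Among 22 tested interferon-stimulated genes IRF1 fell and the median was 0.04, which became -0.39 without SB203580 plus flagellin replicate 1, when IRF1 was not called (edgeR adjusted p = 0.0781).

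Components of TLR5 signalling had 0 of 20 called, 17 of 20 below 0 and a median of -0.13, where 47.5% of all genes were below 0. Mucins and goblet cell genes had 0 of 15 called, 12 of 15 below 0 and a median of -0.31, or -0.17 without SB203580 plus flagellin replicate 1. Antimicrobial and acute-phase proteins had 0 of 20 called, 13 of 20 below 0 and a median of -0.14. That median became 0.016 without the replicate block and 0.115 in replicates 1 and 2 alone. Cell cycle and proliferation genes had 0 of 24 called, 23 of 24 below 0 and a median of -0.20, with medians in the 4 pairs of 0.019, -0.25, -0.78 and 0.16. Mitochondrially encoded genes had 13 of 13 above 0, with 0 called and a median of 0.11. In basal cell markers 0 of 11 were called and the median was 0.04, or -0.064 with 9 of 11 below 0 without SB203580 plus flagellin replicate 1, and in fibroblast and smooth muscle markers 0 of 11 were called and the median was 0.07.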
